A study of Mus musculus with 8 samples.

Results

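Broad stretches of chromatin carrying H3K27 acetylation were examined in HPC-7, a line of mouse haematopoietic progenitor cells grown with stem cell factor. The cells carried either the p30 or the p42 isoform of the transcription factor CEBPA and were left untreated (UT) or exposed for 2 h to lipopolysaccharide (LPS) at 100 ng/mL. H3K27ac HiChIP, in which chromatin with the mark is captured by an antibody and DNA fragments that lie close together in it are then ligated, was done in 2 replicates per group, 8 libraries in all. The processed data hold 1 list of chromatin loops per group (UT and LPS for p30, then UT and LPS for p42, an order that every series of 4 values keeps), in bins of 5 kb, with the replicates pooled. There was thus no spread between replicates to set against a difference, no test was run, and each comparison describes these 4 lists.

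Both isoforms come from the same transcript. p42 is the full-length protein, and p30 lacks an N-terminal stretch with transactivation regions. The study's methods describe cells transduced with a retrovirus that encodes p30 or p42 fused to ERT2, which enters the nucleus when 4-hydroxytamoxifen is added, but the labels of these libraries do not state which construct or tamoxifen schedule was used. No list came from cells without an ectopic isoform, so every value sets cells with one ectopic isoform against cells with the other, or LPS against UT in the same cells.

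A domain was defined as a run of 6 or more adjacent bins flagged as holding an H3K27ac peak in any list, which is 30 kb or longer. The flag itself was the same in every list that held a bin (0 bins had flags that differed), and a bin enters a list only through a loop. In all, 3177 of 18547 runs were domains (17.1%). They took up 37121 of 64985 peak bins (57.1%) and 186 Mb of the genome. The members were therefore selected on 2 measured values, a peak and a loop in at least 1 list, and their high numbers of loops are given as a description.

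H3K27ac is laid down on nucleosomes by the acetyltransferases p300 and CBP at active promoters and enhancers. Where many enhancers lie close together, or where active genes are packed side by side, the mark can extend far beyond a single promoter. Such broad stretches are known for genes of cell identity, among them the transcription factors and receptors of blood progenitors, and for highly transcribed housekeeping genes.

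Start sites in domains ranged from CpG-rich to nearly free of CpG. The windows printed here are the 200 bases before the canonical start site of 1 gene each in 6 domains described further on, chosen as the gene whose start-site bin had the most loops, to show that range. Sequences are from GRCm39, the assembly behind mm39, on the strand of the gene, with CpG dinucleotides in capitals.
Cebpb, chr2:167530635-167530834, plus strand: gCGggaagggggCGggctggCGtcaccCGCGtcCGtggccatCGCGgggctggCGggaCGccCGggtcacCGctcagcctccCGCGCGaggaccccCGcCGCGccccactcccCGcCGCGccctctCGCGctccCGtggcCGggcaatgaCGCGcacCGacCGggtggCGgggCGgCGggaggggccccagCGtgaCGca
Pygl, chr12:70274502-70274701, minus strand: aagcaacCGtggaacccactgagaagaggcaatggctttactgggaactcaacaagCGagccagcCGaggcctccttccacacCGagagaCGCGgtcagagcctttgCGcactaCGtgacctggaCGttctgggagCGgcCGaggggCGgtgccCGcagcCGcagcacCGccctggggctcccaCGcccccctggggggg
Ets2, chr16:95502647-95502846, plus strand: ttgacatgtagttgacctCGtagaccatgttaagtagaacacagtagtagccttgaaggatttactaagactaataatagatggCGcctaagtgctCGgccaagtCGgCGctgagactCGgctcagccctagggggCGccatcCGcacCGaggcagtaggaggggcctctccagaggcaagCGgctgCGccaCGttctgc
B3galt5, chr16:96081712-96081911, plus strand: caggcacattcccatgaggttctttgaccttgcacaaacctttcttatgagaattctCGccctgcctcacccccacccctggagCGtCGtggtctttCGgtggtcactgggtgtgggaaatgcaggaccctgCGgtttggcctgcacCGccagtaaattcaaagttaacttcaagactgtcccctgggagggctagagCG
Krt80, chr15:101268044-101268243, minus strand: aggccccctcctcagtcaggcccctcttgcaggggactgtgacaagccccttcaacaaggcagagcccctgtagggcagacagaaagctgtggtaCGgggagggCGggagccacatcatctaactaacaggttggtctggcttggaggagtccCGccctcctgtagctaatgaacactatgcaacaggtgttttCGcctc
Ccr1l1, chr9:123778446-123778645, minus strand: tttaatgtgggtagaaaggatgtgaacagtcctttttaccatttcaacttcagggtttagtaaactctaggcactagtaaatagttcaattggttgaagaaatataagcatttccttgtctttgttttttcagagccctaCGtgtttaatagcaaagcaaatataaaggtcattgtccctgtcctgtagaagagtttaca
The Cebpb window held 34 CpGs, the Pygl window 16, the Ets2 window 12, the B3galt5 window 7, the Krt80 window 4 and the Ccr1l1 window 1. Over the 5261 protein-coding genes with a start in a domain, the median was 11 CpGs per window, the same as for the 4690 genes with a start in a shorter run. It was 3 for the 11806 genes whose start lay in no listed peak bin and 7 over all 21757 genes. GC content was 58.7% in windows of domain genes, 57.9% in those of shorter runs and 51.0% in those outside listed peak bins.

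Short core motifs of factors that act in blood progenitors were searched on both strands of the same windows, with overlaps between motifs allowed. The CEBP core TTGCNNAA was found in 6.06% of the windows of domain genes and in 7.23% of all windows. The AP-1 core TGANTCA was found in 3.52% and 4.94%, the ETS core GGAAGT in 19% and 16.1%, the GATA core AGATAA in 4.73% and 7.25%, and the RUNX core TGTGGT in 9.73% and 10.5%. Of the printed windows, B3galt5 holds 1 CEBP match and Krt80 holds 1 RUNX match, and the other 4 hold no match to these letters. A match describes letters and not a bound site.

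Away from start sites, 2 domains without a protein-coding start are shown by the 200-base window of their most covered bin that held the most matches to these motifs, with the matches in capitals.
Domain over Hipk2, chr6:38804741-38804940, plus strand: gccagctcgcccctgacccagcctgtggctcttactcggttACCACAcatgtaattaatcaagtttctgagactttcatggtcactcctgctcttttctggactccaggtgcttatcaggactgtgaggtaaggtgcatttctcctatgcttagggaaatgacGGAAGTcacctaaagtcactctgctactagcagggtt
Domain nearest to Lbr, chr1:181694721-181694920, plus strand: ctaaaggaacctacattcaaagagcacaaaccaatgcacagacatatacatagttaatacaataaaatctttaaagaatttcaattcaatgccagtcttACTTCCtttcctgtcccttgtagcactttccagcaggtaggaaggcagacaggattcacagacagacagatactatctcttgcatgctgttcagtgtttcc
The Hipk2 window holds 1 RUNX match on the minus strand and 1 ETS match, with 3 CpGs, and the Lbr window holds 1 ETS match on the minus strand and 0 CpGs.

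Across whole bins, domains were slightly richer in GC than shorter runs and held fewer CEBP and GATA matches. GC content was 46.2% in domain bins and 44.8% in runs of 1 bin, with 13 and 12.6 CpGs per kb. CEBP matches numbered 3.99 per 10 kb in domains and 4.50 in runs of 1 bin, GATA matches 5.55 and 6.34, AP-1 matches 3.01 and 3.19, ETS matches 6.58 and 6.90, and RUNX matches 9.18 and 8.67. GC content moved with these densities, and its part in them was not tested.

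Domains were mostly short, with a long upper tail. The median length was 45 kb (quartiles 35 and 70 kb), 1525 domains were 50 kb or longer, 362 were 100 kb or longer, and the longest was 365 kb. At the threshold, 608 runs had 6 bins and 730 runs had 5. The runs of 5 bins just outside had a start site in 56.2% and a median relative coverage of 1.18 in p30 UT and 1.34 in p42 UT, against 66.3%, 1.17 and 1.37 for the runs of 6 bins just inside.

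The density of domains varied between chromosomes. Chromosome 11 carried 241 domains per 100 Mb (294 in all) and chromosome 17 carried 210 (200 in all), while the lowest autosome, chromosome 3, carried 74.5. On chromosome X there were 10.0 per 100 Mb (17 domains), although its density of protein-coding genes, 579 per 100 Mb, was close to the 620 of chromosome 3.

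The labelled cell type was checked with marker genes. Of 7 progenitor markers, 6 had their start in a domain, among them Kit, the receptor for stem cell factor, Myb, Tal1, Lyl1 and Lmo2, and the seventh, Gata2, lay in a run of 2 to 3 bins. Start sites of 0 of 6 T cell, 0 of 7 erythroid, 0 of 5 mast cell, 0 of 4 liver and 0 of 3 neuron markers lay in domains, though some, such as Lck, Klf1 and Cpa3, lay in shorter runs. Domains held 1 of 5 B cell markers (Cd79a), 2 of 5 megakaryocyte markers (Itga2b and Gp9) and 1 of 4 fibroblast markers (Pdgfrb).

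Most domains held the start of a gene. A protein-coding start lay in 2470 domains, which is 77.7% (95% exact binomial interval 76.3 to 79.2), compared with 51.3% of runs of 4 to 5 bins, 32.6% of runs of 2 to 3 bins and 16.2% of runs of 1 bin. Domains held the starts of 5261 genes, 24.2% of all protein-coding genes. Per length they were not richer in genes, with 2.83 starts per 100 kb against 3.52 in runs of 1 bin, and 12.5% of domain bins held a start against 16.2%.

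The number of starts per domain ran from 0 to 25. There were 1276 domains with 1 start, 571 with 2, 623 with 3 or more and 23 with 10 or more. The 707 domains without a protein-coding start had a median length of 35 kb, against 50 kb for the others. Of these, 395 lay whole inside the body of a protein-coding gene, 545 overlapped one, and 162 lay away from any.

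Gene lists are set here beside the 24.2% of all protein-coding genes with a start in a domain. Of the stem cell heptad, the 7 factors that together bind progenitor enhancers, 6 had their start in a domain: Runx1, Tal1, Lyl1, Lmo2, Fli1 and Erg. Of 30 other haematopoietic factors 12 did (40%), among them Spi1, which encodes the myeloid factor PU.1, Gfi1, Myb and Ikzf1, whereas Mecom, Hoxa9, Irf8 and Klf4 lay in no listed peak bin. Of 22 growth factor and cytokine receptors 15 did (68.2%), including Kit, Csf1r and Csf3r. Of 20 granule and phagocyte genes 13 did (65.0%), with Mpo, Elane and Prtn3, which encode enzymes of neutrophil granules, inside and Ctsg, S100a8 and S100a9 in no listed peak bin.

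In the CEBP family, 5 of 6 genes had their start in a domain (Cebpa, Cebpb, Cebpd, Cebpg and Ddit3, 83.3%), and Cebpe, a factor of late granulocytes, lay in a run of 2 to 3 bins. The list also held Cebpz, which shares the name but not the bZIP domain of the family, and its start lay in a domain too. AP-1 genes divided differently. Fosb, Junb, Batf, Atf3, Mafg and Mafk lay in domains (6 of 15, 40%), while Fos, Jun, Jund, Fosl1 and Fosl2 lay in runs of 2 to 3 bins.

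Genes of the inflammatory response are given by role. Of 23 genes of the NF-kB pathway and its feedback, 16 had their start in a domain (69.6%), including the subunits Rel, Rela and Relb and the inhibitors Nfkbia and Tnfaip3. Among 21 cytokines and chemokines 8 did (38.1%): Tnf, Lta, Ltb, Ccl3, Ccl4, Ccl5, Ccl9 and Csf3. Il6, Il1b, Cxcl2, Cxcl3, Cxcl10 and Ccl2 lay in runs of 2 to 3 bins, and Il1a, Il12b and Cxcl1 in no listed peak bin. Of 15 interferon response genes 6 did (40%), among them Irf1, Irf7, Irf9 and Stat2, and of 13 genes of the ATF4 and stress response 6 did (46.2%), among them Atf4, Atf5 and Ddit4. The histone list, most of whose genes lie in clusters, had 20 of 22 in domains (90.9%) and the housekeeping list 16 of 19 found in the annotation (84.2%), beside 85.7% for the heptad. List members can share a domain, so these counts are not independent.

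Relative coverage, the read coverage of a bin divided by the median over the peak bins of its list, was higher in longer runs. The median over domain bins was 1.13 (UT) and 1.12 (LPS) for p30 and 1.16 and 1.12 for p42. Over runs of 1 bin it was 0.616, 0.620, 0.590 and 0.598. The order from short to long runs was the same in each of the 4 lists. Within domains, bins with a start site were more covered than bins without, with medians of 1.5 and 1.09 in p30 UT and 1.70 and 1.11 in p42 UT.

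**Figure D1:**
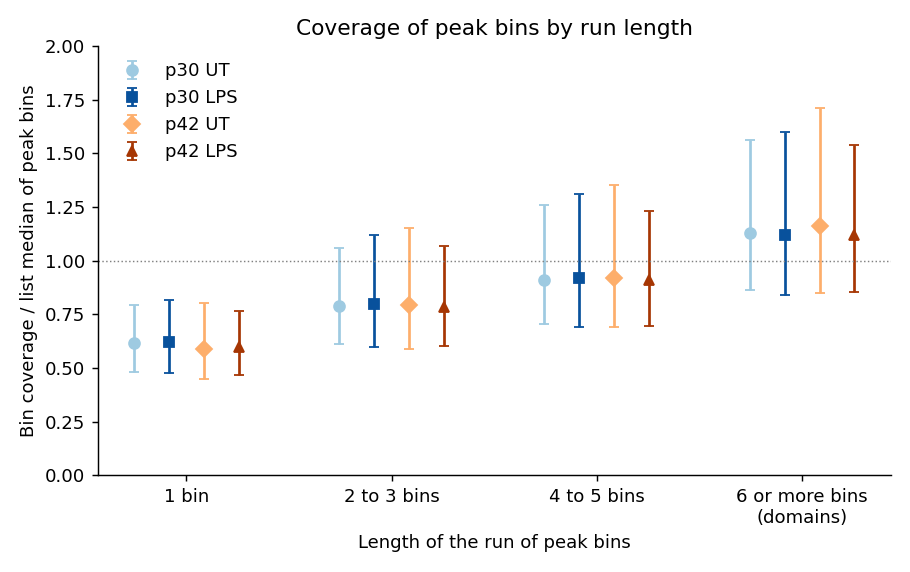
Relative coverage of peak bins (coverage divided by the median peak-bin coverage of the list, linear axis) by length of the run, with 1 symbol per list. Points are medians over bins and bars span the quartiles, and in every list the median rises from about 0.6 in runs of 1 bin to above 1.1 in domains.

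The edges of domains were less covered than the inside. The median relative coverage of the first and last bins was 0.902 (UT) and 0.890 (LPS) for p30 and 0.905 and 0.885 for p42, compared with 1.19, 1.18, 1.24 and 1.18 for inner bins. The most covered bin held a protein-coding start in 34.3% of domains in p30 UT and in 36.4% in p42 UT, so that in most domains the peak of coverage lay in a bin with no protein-coding start.

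How much of a domain was seen depended on the list. Domains kept a run of 6 bins within the list alone in 1693 (UT) and 1985 (LPS) cases for p30, 53.3% and 62.5%, and in 2713 and 1783 cases for p42, 85.4% and 56.1%. The p42 UT list, which held the most of them, also had the most loops, 158233 against 78591 with LPS in p42 and 80489 and 94609 in p30. Of the domain bins 62.9% were in all 4 lists, against 28.6% of other peak bins, and these shared bins were used for the comparison of coverage between lists.

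Loops concentrated in domains. In p30 UT 34849 loops joined bins of the same domain, which is 43.3% of the list, and the share was 47.3% with LPS, against 43.3% and 46.7% for p42. These loops carried 59.9%, 62.5%, 60.2% and 62.3% of the listed contacts. Loops that left a domain made up 41.8%, 39.4%, 42.5% and 40.3%, and loops that touched no domain 14.9%, 13.3%, 14.2% and 13%.

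**Figure D2:**
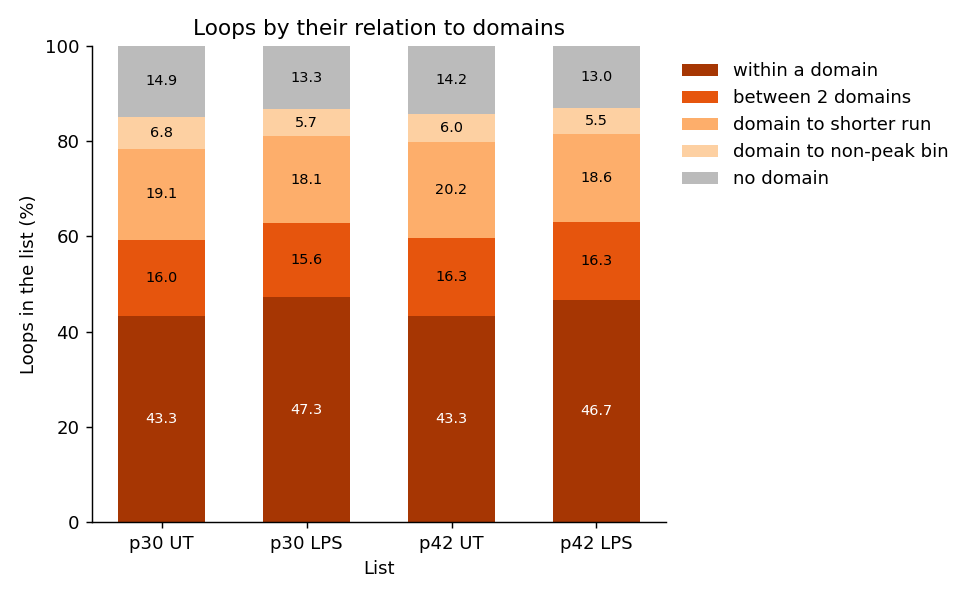
Loops of each list by their relation to domains, as percentages of the loops in the list stacked to 100%. Loops within a domain are the largest part of every list, from 43.3% in p30 UT and p42 UT to 47.3% in p30 LPS.

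Loops within a domain were short, with a median distance of 20 kb in p30 UT and 25 kb in p42 UT, while those leaving a domain had medians of 80 and 75 kb. They held more contacts, a median of 31 against 15 in p30 UT. Relative to the contacts that the caller expected for the distance and coverage they were less enriched, with a median ratio of observed to expected of 3.02, 3.24, 3.21 and 3.19 within and 5.45, 5.51, 5.21 and 5.49 leaving. The order was the same in each list. A protein-coding start lay in at least 1 bin of 30.1% of the loops within domains and of 36.9% of those leaving in p30 UT.

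Loops within domains recurred between lists more often than others. Of 86416 different loops within domains, 19.2% were in all 4 lists and 41.3% in 1 list. Of 34366 loops that touched no domain, 8.49% were in all 4 lists and 60.8% in 1. Loops between 2 domains (14.5% in all 4 lists) and from a domain to a shorter run (11.6%) lay between these. In p30 UT the median loop within a domain spanned 20 kb with 31 contacts, against 50 kb and 16 contacts where no domain was touched. Recurrence was matched for neither distance nor contacts.

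At equal distance, a pair of peak bins was listed as a loop more often when both lay in the same domain than when they lay in different runs of any length. At 20 kb the share in p30 UT was 15.1% (95% exact binomial interval 14.7 to 15.6) in the same domain and 10% in different runs, and in p42 UT it was 32.9% and 22.5%. Pairs in different domains, where both ends carry a broad stretch, were listed more often still at short distances, with 42.7% (37.8 to 47.8) at 10 kb against 30.8% (30.3 to 31.3) in the same domain in p30 UT and 63.2% against 51% in p42 UT. From 30 to 150 kb the same-domain share was the highest in each list, although its interval at 30 kb overlapped that of different domains in each list but p42 UT (12.4 to 13.3 and 10.7 to 13.1 in p30 UT). At 100 kb the same-domain share in p30 UT was 6.97% (6.04 to 7.99), against 4.02% (3.63 to 4.45) for different domains and 3.23% (3.01 to 3.46) for different runs, and in p42 UT the shares were 13.9%, 7.74% and 6.53%. At 200 kb 230 pairs in the same domain remained and the intervals of same domain and different runs overlapped in 3 lists, with 2.17% (0.710 to 5.00) and 0.942% (0.817 to 1.08) in p30 UT. The intervals cover counting error and not the spread between replicates. Bins enter the lists through loops, so a share is no estimate for all peaks.

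**Figure D3:**
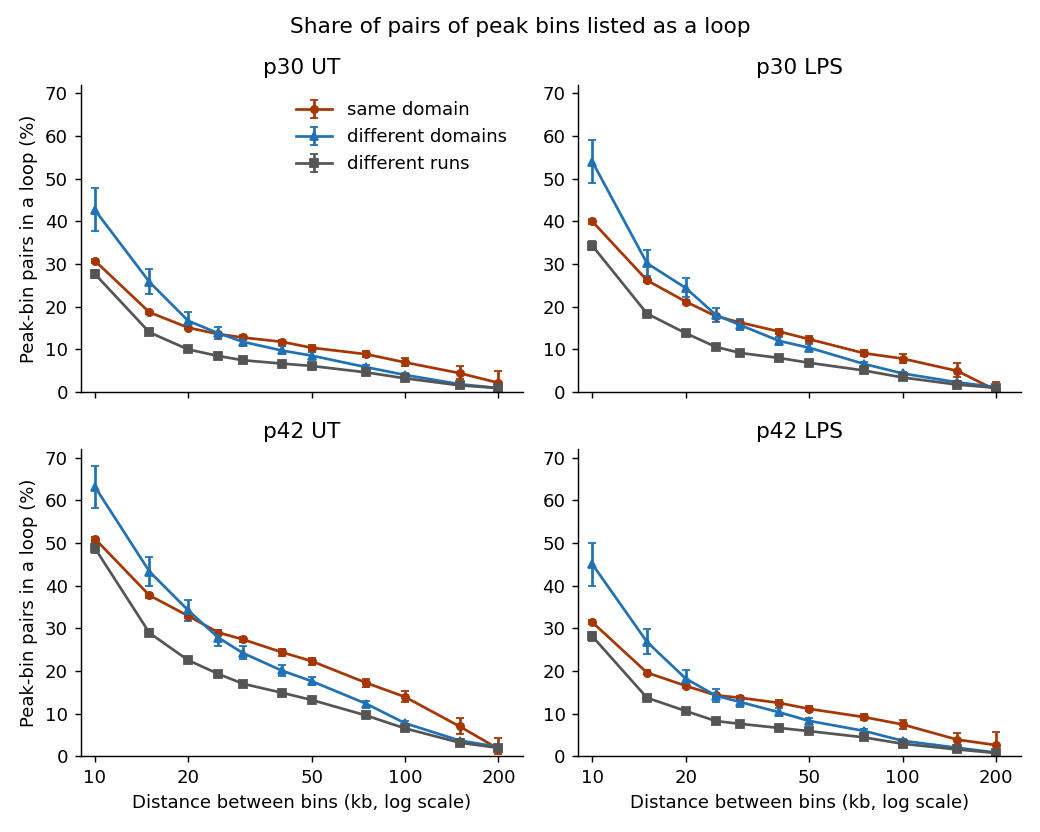
Percentage of pairs of peak bins that are listed as a loop, against the distance between bins in kb on a log axis, in 1 panel per list. Points for pairs in the same domain, in different domains and in different runs of any length carry 95% exact binomial intervals, and the same-domain points lie above those of different runs from 10 to 150 kb in each list but below those of different domains at 10 to 20 kb.

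The longest domains held the most internal loops per bin and the fewest that left. Loops within per bin went from 0.262 in runs of 6 bins to 1.72 in runs of 20 or more bins in p30 UT and from 0.524 to 3.33 in p42 UT, and a long run also has more possible partners within itself. Leaving loops per bin were 1.38 in runs of 6 bins, 1.54 in runs of 7 to 9, 1.29 in runs of 10 to 19 and 0.919 in runs of 20 or more in p30 UT. Gene density was 3.29 starts per 100 kb in runs of 6 bins and 2.41 in the longest class.

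Most domains were linked to another. In the union of the lists 2147 pairs of domains were joined by a loop, 1122 of them in all 4 lists (52.3%). Of the 3177 domains, 2295 had a partner domain (72.2%), with a median of 1 and at most 8. Domains with no internal loop in a list numbered 388 (UT) and 265 (LPS) for p30 and 110 and 351 for p42, and 33 had none in any list.

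With LPS the number of loops within domains went up in p30 and down in p42. It went from 34849 to 44738 in p30, a ratio of 1.28, and from 68523 to 36729 in p42, a ratio of 0.536. Leaving loops had ratios of 1.11 and 0.471, and loops touching no domain 1.05 and 0.453, so every category went in the direction of the whole list. As a share of the list, loops within domains were 1.09 times as frequent with LPS in p30 and 1.08 times in p42. When each list was reduced to the 78591 loops with the smallest q-values, the share was 43.5% (UT) and 48.7% (LPS) for p30 and 49.4% and 46.7% for p42, and the direction in p42 turned (ratio 0.946). For leaving loops the ratios with lists of this size were 0.926 in p30 and 1.03 in p42, both turned.

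The longest domains differed in how many genes they held. The longest, chr16:91140001-91505000 (365 kb), held 10 starts, among them the interferon receptor genes Ifnar1, Ifnar2 and Ifngr2 and the interleukin 10 receptor gene Il10rb. Its relative coverage was 1.5 (UT) and 1.77 (LPS) for p30 and 1.79 and 1.69 for p42, and it held 236, 393, 538 and 337 internal loops in the same order. Loop counts of single domains, here and below, are not adjusted for the size of the list. Over all domains p42 UT held 1.97 times as many loops within domains as p30 UT and 1.99 times as many leaving. The next, chr10:79685001-80020000 (335 kb), held 25 starts, the most of any domain, including the neutrophil serine protease genes Prtn3 and Elane, and had a coverage of 2.38, 2.60, 2.55 and 2.08. This domain also had 344, 473, 529 and 350 internal loops and more loops common to all 4 lists than any other.

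The other long domains were those of Furin (320 kb, 11 starts), Vapa (315 kb), Eif4g3 (275 kb), Mknk2 (270 kb, 16 starts), Pcbp1 (265 kb), Ern1 (260 kb), Taf11 (255 kb) and Igf1r (250 kb, 1 start). Igf1r, the receptor for insulin-like growth factor 1, stood out among them by how few of its bins were shared, 8 of 50 in all 4 lists. It held 23 (UT) and 7 (LPS) internal loops for p30 and 77 and 26 for p42. Loops common to all 4 lists were most frequent in the domains of Elane and Prtn3 (222), Mknk2 (156), Taf11 (131), Dusp1 (129) and Ifnar1 (128). Dusp1 encodes a phosphatase that limits MAP kinase signalling, and its domain (170 kb) had a coverage of 2.01 (UT) and 2.28 (LPS) for p30 and 2.60 and 2.23 for p42.

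The 5 most covered domains were between 30 and 80 kb long. The domain of the chemokine receptor genes Ccr1 and Ccr1l1 (80 kb) had a relative coverage of 4.02 (UT) and 4.41 (LPS) for p30 and 6.85 and 5.15 for p42. That of Cd244a, a receptor of the SLAM family (35 kb), had 4.86, 4.85, 4.39 and 3.31. Both p42 lists were above both p30 lists in the Ccr1 domain and below them in the Cd244a domain. Adipor1, an adiponectin receptor gene (40 kb), had 3.66, 4.23, 4.69 and 3.84, and Ctsd, which encodes the lysosomal protease cathepsin D (35 kb), had 3.70, 3.89, 4.69 and 3.75. The fifth, chr1:181680001-181710000, had no start, lay nearest to Lbr and had 3.09, 2.54, 5.57 and 3.40.

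Coverage could be compared between lists in 2453 domains with at least 3 bins in all 4 lists. The median over these domains was 1.27 (UT) and 1.32 (LPS) for p30 and 1.49 and 1.26 for p42. The scale matters here, since the lists differ in the peak bins that set their median (44437 in p30 UT against 57801 in p42 UT). When coverage was divided by the median over peak bins in all 4 lists instead, the log2 ratio of every domain shifted by -0.16 for p42 over p30 in UT, 0.05 in LPS, -0.02 for LPS over UT in p30 and 0.19 in p42.

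For p42 over p30 the median log2 ratio of domains was 0.20 in UT and -0.11 in LPS, and 0.04 and -0.06 on the shared bins. For LPS over UT it was 0.06 in p30 and -0.23 in p42, and 0.04 and -0.05 on the shared bins. On the shared bins the medians thus lay within 0.06 of 0 in all 4 comparisons. Of the 31321 peak bins in all 4 lists, which set this scale, 23362 were domain bins. The scale itself therefore holds the medians of domains near 0, and their closeness to 0 does not show that domains were alike. Over the 3223 runs of any length with at least 3 bins in all 4 lists the medians were 0.19, -0.11, 0.06 and -0.23 on the list median.

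A difference of more than 1.5-fold was rare and most frequent for p42 over p30 in UT. There 231 domains were higher in p42 and 2 lower, where 9.09% and 0.0931% of all runs passed in each direction. On the shared bins 98 were higher and 22 lower (4.03% and 1.18% of all runs). In LPS 39 domains were higher in p42 and 55 lower (1.89% and 2.89% of all runs), and 48 and 39 on the shared bins (2.39% and 1.92%). As shares of the 2453 domains, the 231 and 98 higher in p42 in UT are 9.42% and 4%. All runs include the domains, and of the 770 shorter runs alone 8.05% and 4.16% were higher. In LPS 2.24% of domains and 4.94% of shorter runs were lower in p42, and 1.59% and 2.99% on the shared bins.

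With LPS in p30, 49 domains passed upward and 4 downward (2.17% and 0.248% of all runs), and 42 and 5 on the shared bins (1.83% and 0.279%). With LPS in p42, 3 passed upward and 64 downward (0.155% and 3.26% of all runs), and on the shared bins the balance turned to 19 upward and 6 downward (0.807% and 0.434%). The split between higher and lower calls in p42 therefore followed the scale, whereas in p30 upward calls were the more frequent on both. Downward calls in p42 made up 2.61% of domains and 5.32% of shorter runs, and 0.245% and 1.04% on the shared bins.

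Domains without a protein-coding start differed more often than those with one. For p42 over p30 in UT, 14.7% of 421 domains without a start were more than 1.5-fold higher in p42, against 8.32% of 2032 with a start, and on the shared bins 8.79% and 3%. The SD of the log2 ratio was 0.37 and 0.27. Both values come from the same pair of lists, and domains without a start were shorter, which was not adjusted for.

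The isoform ratios of domains ran in parallel in UT and LPS, which share no library. Across 2453 domains Pearson's r was 0.69 and Spearman's rho 0.63, and for the LPS ratios of p30 and p42, Pearson's r was 0.44 and Spearman's rho 0.33. These are correlations across domains, which are not independent replicates, so no p is given. Copy number, mappability and base composition of a domain can be common to both pairs of lists, and their part was not tested.

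**Figure D4:**
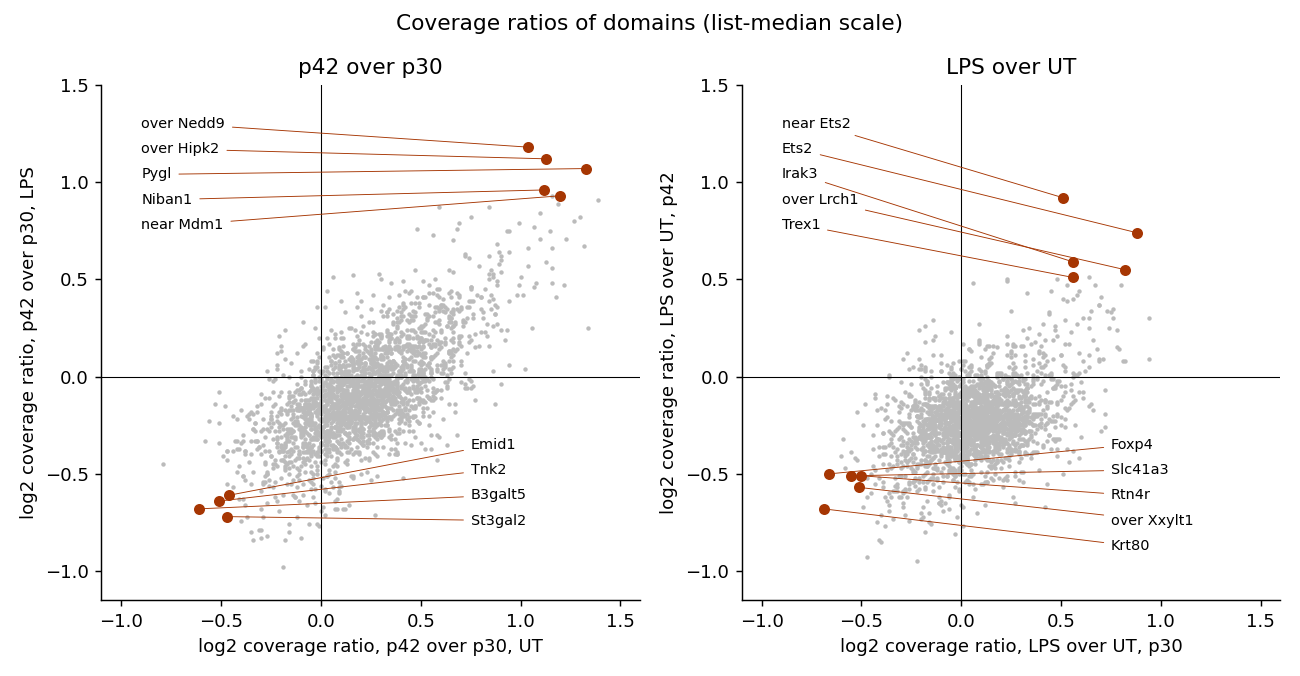
Log2 ratios of relative coverage (list-median scale) of domains in p42 over p30, in UT against LPS (left), and in LPS over UT, in p30 against p42 (right). Each grey point is a domain, red points are named domains, and on the left the cloud runs along the diagonal, from -0.61 and -0.68 for B3galt5 to 1.33 and 1.07 for Pygl.

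Coverage ratios were more alike among bins of a domain than over all bins. The SD of the log2 ratio for p42 over p30 in UT was 0.33 over all bins and 0.22 among bins of a domain, so that 55.2% of the variance lay between domains. The share was 50.1% for p42 over p30 in LPS, 54.3% for LPS over UT in p30 and 39.7% in p42. Domains with bins past 1.5-fold in both directions numbered 12, 10, 1 and 0. Counting error was small beside this, with a median SD of 0.034 per bin for p42 over p30 in UT.

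None of the 5 domains that led in p42 under both treatments holds a gene of the lists above. The domain over Hipk2, a nuclear kinase gene (chr6:38780001-38815000), had a relative coverage of 0.613 (UT) and 0.607 (LPS) for p30 and 1.34 and 1.32 for p42. Both p42 lists were thus above both p30 lists, with log2 ratios of 1.13 in UT and 1.12 in LPS (0.97 and 1.17 on the shared bins). Pygl, which encodes liver glycogen phosphorylase, had 0.956, 0.749, 2.41 and 1.57 in the same order, log2 ratios of 1.33 and 1.07 (1.17 and 1.12 on the shared bins). These values are means over the bins in all 4 lists, which were 4 of 7 bins at Hipk2 and 3 of 7 at Pygl.

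Niban1 (70 kb), a stress-responsive gene, had a coverage of 0.941 (UT) and 0.919 (LPS) for p30 and 2.05 and 1.79 for p42. Its internal loops, not adjusted for the size of the list, numbered 4, 7, 28 and 11. The domain over Nedd9, an adhesion docking protein gene, had 0.951, 0.780, 1.95 and 1.77, and the one nearest to Mdm1 had 0.664, 0.749, 1.53 and 1.43. The Nedd9 values rest on 3 of 11 bins. In all 5 domains both p42 lists lay above both p30 lists on either scale, which the rule that chose them favours. Of 2453 domains, 753 were higher in p42 under both treatments, and how many separated in this way was not counted. In all, 37 domains were more than 1.5-fold higher in p42 under both treatments, and 36 on the shared bins (1.74% and 1.74% of all runs).

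Domains lower in p42 differed by less. B3galt5, a galactosyltransferase gene (chr16:96070001-96130000), had a coverage of 1.28 (UT) and 1.18 (LPS) for p30 and 0.839 and 0.737 for p42, log2 ratios of -0.61 and -0.68. Tnk2, a non-receptor tyrosine kinase gene, had 1.28, 1.24, 0.898 and 0.793, and St3gal2, a sialyltransferase gene, 1.39, 1.26, 1.00 and 0.766. In these 3 domains the p30 lists did not overlap the p42 lists, which the rule that chose them favours. Of 2453 domains, 500 were lower in p42 under both treatments. In the Emid1 domain (1.87, 1.35, 1.37 and 0.886) the p30 LPS value lay below that of p42 UT on the list median, an order that turned on the shared bins. The St3gal2 and Emid1 values rest on 3 of 6 and 3 of 7 bins. B3galt5 was the 1 domain past 1.5-fold in both treatments, and 3 domains were on the shared bins (0.0621% and 0.217% of all runs).

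Of domains more covered with LPS in both isoforms, the first by the smaller of the 2 ratios was that of Ets2, which encodes an ETS factor activated by MAP kinase signalling. The Ets2 domain (chr16:95500001-95535000) had a coverage of 0.761 (UT) and 1.40 (LPS) for p30 and 0.980 and 1.64 for p42, log2 ratios with LPS of 0.88 in p30 and 0.74 in p42. A neighbouring domain, chr16:95615001-95675000, with no start of its own, had 0.985, 1.40, 1.00 and 1.91. Loops leaving this neighbour numbered 2 (UT) and 18 (LPS) for p30 and 8 and 56 for p42. Those leaving the Ets2 domain numbered 5, 13, 3 and 32, so in both domains the LPS lists held more than the UT lists, although the p42 LPS list is the shortest of the 4.

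Irak3, an inhibitor of Toll-like receptor signalling, had a domain coverage of 0.625 (UT) and 0.924 (LPS) for p30 and 1.12 and 1.69 for p42. It was thus higher with LPS in each isoform and higher in p42 under each treatment, with log2 ratios of 0.84 in UT and 0.87 in LPS. The domain over Lrch1 had 0.783, 1.38, 0.736 and 1.08, and that of Trex1, which encodes a DNA exonuclease, had 1.69, 2.48, 1.65 and 2.35. The values at Irak3 and at Lrch1 rest on 3 of 7 bins each. On the list median 1 domain, that of Ets2, passed 1.5-fold in both isoforms, and 6 did on the shared bins (0.0621% and 0.31% of all runs).

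Coverage was lower with LPS in both isoforms at 5 named domains that hold no gene of the lists. Krt80, a keratin gene (chr15:101245001-101290000), had a coverage of 1.95 (UT) and 1.21 (LPS) for p30 and 2.17 and 1.36 for p42, log2 ratios of -0.69 and -0.68, and its leaving loops numbered 20, 8, 33 and 11. The domain over Xxylt1 had 1.45, 1.02, 1.93 and 1.3, and Slc41a3, a magnesium transporter gene, 1.34, 0.912, 1.00 and 0.704. Rtn4r had 1.20, 0.845, 1.22 and 0.862, and Foxp4, a forkhead factor gene, 1.62, 1.02, 1.3 and 0.919. The Foxp4 and Xxylt1 values rest on 3 of 16 and 4 of 8 bins. In each of the 5 both LPS lists lay below both UT lists, which the rule that chose them favours. Coverage was lower with LPS in both isoforms in 894 of 2453 domains, and Krt80 was the 1 domain past 1.5-fold in both isoforms. On the shared bins the changes in p42 were smaller by 0.19, and no domain passed 1.5-fold downward in both isoforms (0.0931% and 0.031% of all runs on the list median and the shared bins).

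**Figure D5:**
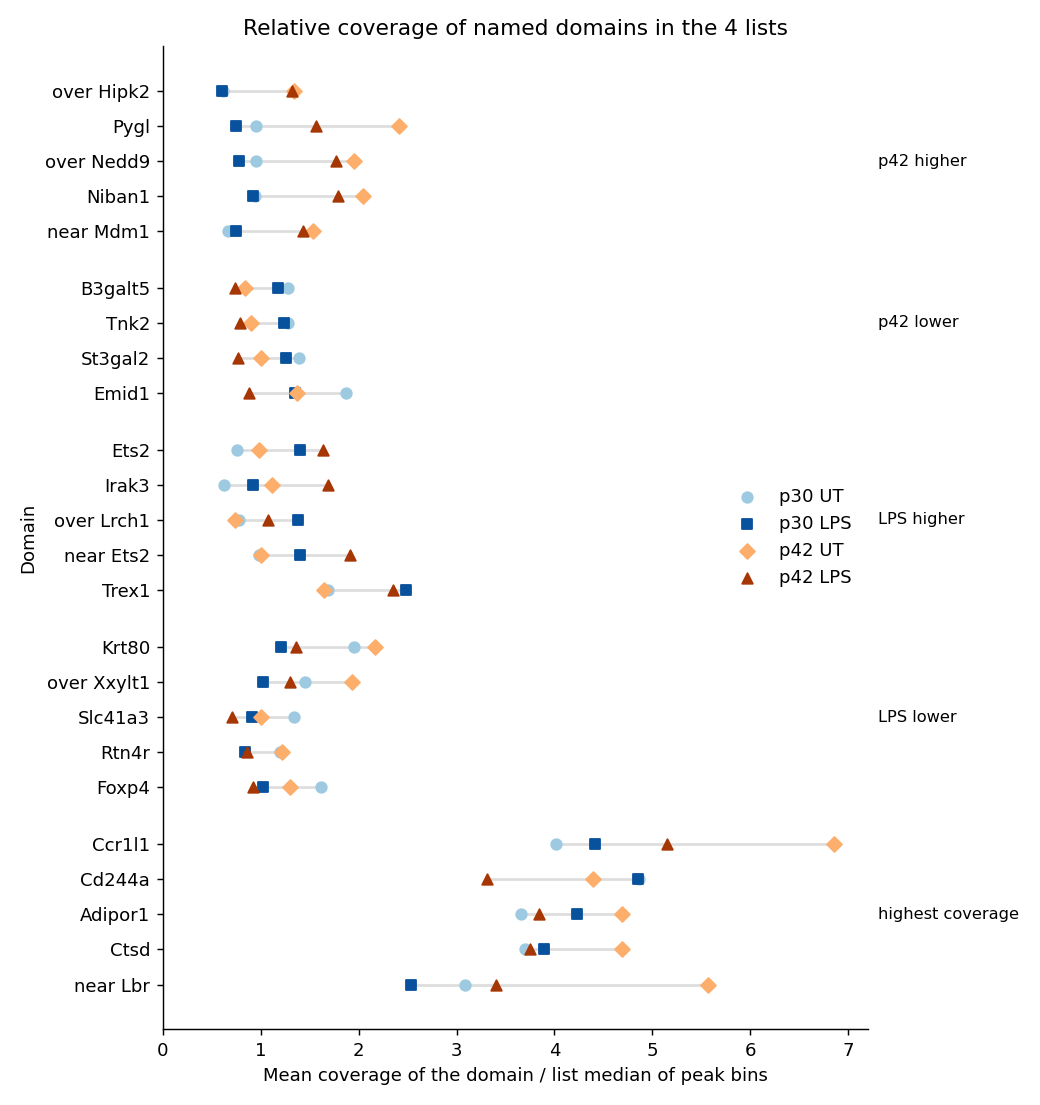
Mean relative coverage of domains named by rank (linear axis, coverage divided by the list median of peak bins), grouped by rule, with 1 symbol per list and a grey line over the range. Domains higher in p42 have both p42 symbols right of the p30 symbols, while Ets2, Irak3, Lrch1, the neighbour of Ets2 and Trex1 have each LPS symbol right of the UT symbol of the same isoform.

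Among CEBP family domains, Cebpb differed most between isoforms in UT. Cebpb, a relative of CEBPA induced in activated myeloid cells (chr2:167520001-167625000), had a coverage of 1.49 (UT) and 1.96 (LPS) for p30 and 2.53 and 2.56 for p42. Internal loops numbered 61, 96, 146 and 111 and leaving loops 56, 110, 194 and 117. The log2 ratio of p42 over p30 was 0.76 in UT and 0.39 in LPS, and 0.60 and 0.44 on the shared bins. Both p42 lists thus lay above both p30 lists.

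Cebpa itself (chr7:34805001-34880000) had 1.02 (UT) and 0.802 (LPS) for p30 and 1.17 and 0.998 for p42, and Cebpg, next to it, had 0.840, 0.695, 1.07 and 0.969. In both, the LPS value was below the UT value of the same isoform on the list median, and for Cebpg in p42 it was 0.04 log2 units above on the shared bins. Reads from the ectopic CEBPA sequence could map to the Cebpa exon and cannot be told apart from reads of the locus in these lists. Over the 4 CEBP family domains with coverage the median log2 ratio of p42 over p30 was 0.28 in UT and 0.35 in LPS, beside 0.20 and -0.11 over all domains, and on the shared bins 0.12 and 0.40, beside 0.04 and -0.06.

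On the list median, domains of the heptad were slightly less covered with LPS. Erg (125 kb) had a coverage of 2.14 (UT) and 2.05 (LPS) for p30 and 2.64 and 2.38 for p42, with 108, 145, 200 and 149 internal loops. Runx1 (170 kb) had 1.49, 1.44, 1.76 and 1.74. Lmo2, at the minimum length of 30 kb, had 0.962, 0.887, 1.51 and 1.20, and Lyl1 had 2.00, 1.91, 2.20 and 1.66. Lmo2 was the 1 of 6 past 1.5-fold for p42 over p30 in UT (log2 ratio 0.65, and 0.49 on the shared bins), where 9.42% of all domains were. Over 6 heptad domains the median log2 ratio of LPS over UT was -0.09 in p30 and -0.29 in p42, beside 0.06 and -0.23 over all domains, and 0 of 6 were above 0 in either isoform, where 1519 of 2453 domains were in p30 and 215 in p42. On the shared bins the medians were -0.12 and -0.10, and 2 of 6 were above 0 in p42, beside 913 of 2453 domains. Among other haematopoietic factors, Zfpm1, which encodes the GATA cofactor FOG1, went the other way between isoforms, with 1.83, 1.67, 1.36 and 1.19, both p42 lists below both p30 lists.

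Zfp36l2, an mRNA decay factor gene whose domain (200 kb) had the most leaving loops of the domains described here, had a coverage of 2.37 (UT) and 2.02 (LPS) for p30 and 2.90 and 2.01 for p42. Its leaving loops numbered 310, 245, 547 and 179. Nfe2 lay in a 140 kb domain that also holds Gpr84, a fatty acid receptor gene, with 1.61, 1.90, 2.27 and 1.85, and Ikzf1 in one with 0.952, 0.775, 1.11 and 0.868. The LPS value was below the UT value in both isoforms at Zfp36l2 and Ikzf1. Of the 11 domains of this list, 2 were past 1.5-fold higher in p42 in UT (0 on the shared bins), 1 in LPS and 1 with LPS in p30, beside 9.42%, 1.59% and 2% of all domains. These domains, described after their values were seen, were those of Myb, with 0.725, 0.663, 1.20 and 1.02 and log2 ratios for p42 over p30 of 0.72 in UT and 0.62 in LPS, Ikzf2, with 0.69 in UT, and Klf6, with 1.61, 2.51, 2.35 and 2.12 and a log2 ratio with LPS in p30 of 0.64. Zfpm1 was past 1.5-fold lower in p42 in UT on the shared bins alone (-0.59). Over the 11 domains the median log2 ratio for p42 over p30 was 0.41 in UT and -0.03 in LPS, and 0.25 and 0.01 on the shared bins.

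Receptor and granule gene domains held a wide range of ratios. The largest isoform ratio in UT of any gene list domain was that of Anxa1, which encodes the phospholipid-binding protein annexin A1 and is named after its values were seen. Its domain had a coverage of 0.847 (UT) and 0.911 (LPS) for p30 and 2.11 and 1.45 for p42, log2 ratios of p42 over p30 of 1.32 in UT and 0.67 in LPS (1.16 and 0.72 on the shared bins), and both p42 lists lay above both p30 lists. The Csf2rb domain, which holds the shared receptor chain for IL-3 and GM-CSF together with Csf2rb2 and Ncf4, had a coverage of 0.976 (UT) and 1.25 (LPS) for p30 and 1.22 and 1.14 for p42. The domain of Fcgr3, with the Fc receptor genes Fcgr2b and Fcgr4, had 1.49, 1.87, 2.70 and 2.46, with both p42 lists above both p30 lists and 92, 123, 185 and 147 leaving loops. Ncf1, a subunit of the phagocyte oxidase, lay in a domain with 1.57, 1.62, 1.87 and 1.48. In UT 2 of 11 granule and phagocyte domains (Fcgr3 and Anxa1) were past 1.5-fold higher in p42 on both scales, and 2 of 11 receptor domains (Cxcr4 and Ifngr1, with log2 ratios of 0.64 and 0.61) on the list median and 0 on the shared bins, where 9.42% and 4% of all domains were. Over 11 granule and phagocyte domains the median log2 ratio was 0.32 for p42 over p30 in UT and -0.02 in LPS, and 0.16 and 0.02 on the shared bins. Over 11 receptor domains it was 0.22 and -0.02, and 0.06 and 0.03 on the shared bins.

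At domains of the NF-kB pathway coverage was higher with LPS in p30 and mostly lower in p42 on the list median. The Nfkbia domain, at the gene for the inhibitor IkB-alpha (125 kb), had a coverage of 0.824 (UT) and 1.15 (LPS) for p30 and 1.13 and 1.1 for p42, and 45, 92, 115 and 94 internal loops. Socs3, a feedback inhibitor of cytokine signalling, lay in a domain with 1.38, 1.83, 1.54 and 1.41. Ier3, an immediate early gene, lay in one with 2.06, 2.39, 2.42 and 2.06. In each, the p30 UT list had the lowest coverage or shared it. Over 14 such domains the median log2 ratio of LPS over UT was 0.20 in p30 (13 of 14 above 0, beside 1519 of all 2453 domains) and -0.19 in p42, beside 0.06 and -0.23 over all domains, and 0.17 and 0.00 on the shared bins, beside 0.04 and -0.05. Of these 14, 3 passed 1.5-fold upward with LPS in p30 and 0 in p42, beside 2% and 0.122% of all domains.

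The 3 were the domains of Tnfaip3, which encodes the ubiquitin-editing inhibitor A20, Bcl3, an atypical IkB gene, and Traf1, a signalling adaptor gene, and are described after their values were seen. Tnfaip3 had a coverage of 0.810 (UT) and 1.37 (LPS) for p30 and 1.14 and 1.40 for p42, Bcl3 had 0.969, 1.86, 1.00 and 1.23, and Traf1 had 0.880, 1.47, 0.850 and 1.01. Coverage was higher with LPS in both isoforms in 175 of 2453 domains. In each of these 3 both LPS lists lay above both UT lists, in part because of the p30 values that chose them. How many of all domains separate in this way was not counted. The log2 ratios with LPS were 0.76, 0.94 and 0.74 in p30 and 0.30, 0.30 and 0.25 in p42 (0.49, 0.48 and 0.44 on the shared bins), and on the list median these were the 3 of 14 domains above 0 in p42, beside 215 of 2453 domains. Bcl3 was also the 1 of 14 past 1.5-fold downward for p42 over p30 in LPS (-0.60, and -0.55 on the shared bins), where 2.24% of all domains were.

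Cytokine and chemokine genes lay in 4 domains with coverage. The domain of Tnf, Lta and Ltb (155 kb, 17 starts, among them H2-D1) had a coverage of 2.85 (UT) and 3.31 (LPS) for p30 and 3.27 and 2.71 for p42. The domain of the chemokine genes Ccl5, Ccl9 and Ccl6 had 1.47, 1.79, 2.11 and 2.00, and leaving loops numbered 100, 148, 221 and 141. Both p42 lists exceeded both p30 lists at Ccl5, and they did not at Tnf. The neighbouring domain of Ccl3 and Ccl4, named after its values were seen, had 2.02, 2.50, 3.26 and 2.88 and was the 1 of the 4 past 1.5-fold for p42 over p30 in UT (log2 ratio 0.69, and 0.53 on the shared bins), where 9.42% of all domains were. The median log2 ratio over the 4 was 0.36 for p42 over p30 in UT, 0.03 in LPS, 0.25 for LPS over UT in p30 and -0.22 in p42, beside 0.20, -0.11, 0.06 and -0.23 over all domains, and 0.19, 0.08, 0.23 and -0.04 on the shared bins. For p42 over p30 in UT 4 of 4 were above 0 (3 on the shared bins), beside 1916 of 2453 domains. Domains with several genes give 1 value for all of them.

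Among AP-1 domains, Atf3, a stress-induced factor gene (30 kb), had a coverage of 1.90 (UT) and 2.27 (LPS) for p30 and 2.34 and 2.61 for p42, higher with LPS in each isoform. It held 0, 4, 5 and 2 internal loops and 39, 42, 77 and 61 leaving loops. Junb shared a 40 kb domain with Prdx2 and Rnaseh2a, with 2.05, 2.63, 2.52 and 2.12. Mafg had 1.67, 1.77, 1.94 and 1.71, and Mafk 1.57, 1.3, 1.78 and 1.46. The p30 LPS list was the highest at Junb and the lowest at Mafk. Batf, a factor gene of the same family that is named after its values were seen, lay in a domain with 1.05, 1.85, 1.07 and 1.13, in which the p30 LPS list stood above the others. It was the 1 of 6 AP-1 domains past 1.5-fold upward with LPS in p30 (log2 ratio 0.81, and 0.79 on the shared bins), where 2% of all domains were, and the 1 of 6 past downward for p42 over p30 in LPS (-0.71, and -0.66 on the shared bins), where 2.24% were. Over the 6 domains the median log2 ratio was 0.21 for p42 over p30 in UT, -0.18 in LPS, 0.23 for LPS over UT in p30 and -0.21 in p42, beside 0.20, -0.11, 0.06 and -0.23 over all domains, and 0.05, -0.13, 0.21 and -0.03 on the shared bins.

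Of the 12 gene lists, the interferon response had the largest median ratio with LPS in p30 after the histones (0.34). The Stat2 domain had a coverage of 1.89 (UT) and 2.70 (LPS) for p30 and 2.32 and 2.37 for p42, and the Irf9 domain 1.73, 2.14, 1.76 and 1.74. At Irf1 the values were 1.44, 1.41, 1.52 and 1.15, with 42, 45, 61 and 24 internal loops. Irf1 thus had no higher value with LPS in p30. Over the 5 interferon domains with coverage the median log2 ratio of LPS over UT was 0.31 in p30 and -0.02 in p42, and 0.29 and 0.17 on the shared bins. For p42 over p30 in LPS it was -0.30, with 0 of 5 above 0, beside -0.11 and 790 of 2453 over all domains, and on the shared bins it was -0.25, beside -0.06.

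Genes of the ATF4 and stress response lay in 6 domains with coverage. Ddit4, an inhibitor of mTOR signalling, lay in a domain with a coverage of 1.76 (UT) and 1.67 (LPS) for p30 and 1.96 and 1.55 for p42, and Sesn2 in one with 1.16, 1.13, 1.47 and 1.26. The median log2 ratio over the 6 was 0.14 for p42 over p30 in UT, -0.09 in LPS, 0.02 for LPS over UT in p30 and -0.24 in p42, and -0.02, -0.04, -0.01 and -0.06 on the shared bins.

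Among housekeeping genes used as controls, Ywhaz, a 14-3-3 gene, lay in a domain with a coverage of 1.42 (UT) and 1.56 (LPS) for p30 and 1.55 and 1.15 for p42. Over 15 housekeeping domains the median log2 ratio was 0.20 for p42 over p30 in UT, -0.21 in LPS, 0.11 for LPS over UT in p30 and -0.23 in p42, beside 0.20, -0.11, 0.06 and -0.23 over all domains. On the shared bins it was 0.03, -0.16, 0.09 and -0.04, beside 0.04, -0.06, 0.04 and -0.05. For p42 over p30 in LPS 3 of the 15 were above 0, beside 790 of 2453 domains. The histone cluster domain with H2ac18 (80 kb) had 1.66, 2.10, 2.52 and 2.14, and over 5 histone domains the median for p42 over p30 was 0.60 in UT and -0.02 in LPS, and 0.44 and 0.03 on the shared bins. In UT 3 of these 5 were past 1.5-fold higher in p42, and 2 on the shared bins, beside 9.42% and 4% of all domains. Each list median rests on few domains and describes them alone.

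Motif density was compared between domains at both ends of the isoform and LPS ratios. The 245 domains with the highest mean ratio of p42 over p30 held 4.68 CEBP matches per 10 kb and the 245 with the lowest held 3.51, beside 3.92 over all domains with ratios. GATA matches went the same way (6.54 and 4.59), AP-1 matches differed less (3.32 and 3.03), and ETS matches were 6.82 and 6.97. GC content was 43.9% at the high end and 48.9% at the low end. At the ends of the LPS ratio CEBP matches were 4.35 and 3.82 per 10 kb, AP-1 matches 3.24 and 2.98, and GC content 45.2% and 48.0%. The part of base composition in these densities was not tested.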

How the data were processed

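HiChIP reads were mapped by the authors with BWA-MEM 0.7.17 to mm39, ligation products were recorded with pairtools, and loops were called with FitHiChIP in bins of 5 kb, per the study's methods. The authors deposited 1 list per group without a header, read here in FitHiChIP's column order, in which the replicates are pooled. Each deposited list gives the contact count of a bin pair, a read count of coverage per bin, the expected count estimated by the authors' caller, a coverage bias that is a ratio to the mean of bins of the same kind, and a q-value (at most 0.01), with a flag for bins that hold a peak. The group of a list was taken from its name.

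The union of flagged bins was joined into runs, and runs of 6 or more bins were domains. The members, lists and naming rules were chosen with earlier results of these data known. GENCODE M39 supplied 21757 protein-coding genes, each placed by its canonical start, and the GRCm39 genome the sequences (promoter windows end at the start, so that they hold no transcribed bases). A domain's relative coverage is the mean over bins in all 4 lists (at least 3) of coverage divided by the list's median over peak bins. A difference of 1.5-fold was the size rule. No test was made, as each group is 1 list, and the 95% exact binomial intervals cover counting error only, for reads whose molecules are not independent of amplification. Domains were named by rank: the 10 longest, the 5 with the largest p42 over p30 ratio of 1 sign in both treatments, in each direction, the same for LPS over UT in both isoforms (ranked by the smaller ratio), the 5 with the most internal loops in all 4 lists, the 5 most covered and up to 4 examples per gene list. A domain that the rule for p42 over p30 names is not reported here. Runs and folds planted in simulated lists were recovered. Python 3.11.15, pandas 2.3.3 and numpy 2.4.6 were used. Alternatives were other run lengths, flags, scalings, list sizes and q-values. No column of another series was present.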

Additional observations from a re-analysis of the deposited data

Results flagged for a closer look

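Some measures of domains moved in opposite directions with LPS in p30 and p42, which was not tested because each group is 1 list. The log2 change of loops within domains was 0.36 for p30 and -0.90 for p42 (difference 1.26), and that of loops leaving domains was 0.15 and -1.09 (difference 1.23). With lists of equal size the ratios of LPS over UT were 1.12 in p30 and 0.946 in p42 for loops within domains, still opposite, and 0.926 and 1.03 for loops leaving them, so that both directions turned. The number of listed loops went from 80489 to 94609 in p30 and from 158233 to 78591 in p42, and its part in these changes was not tested. The median log2 coverage ratio of domains differed by 0.29 (0.06 in p30 and -0.23 in p42), and on the shared bins it was 0.04 and -0.05. In the domain of Rnaseh2a and Junb the log2 coverage change was 0.36 for p30 and -0.25 for p42 (difference 0.61), and 0.34 and -0.06 on the shared bins.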

How the results depend on the processing

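With a minimum run of 8 bins there were 2107 domains, and 1295 when bins had to be in all 4 lists. The share of domains with a start was 91.8% with all annotated genes and 83.5% with a minimum of 8 bins. The median log2 coverage ratio for p42 over p30 in UT, 0.20, became 0.04 on the shared peak bins, 0.05 with the caller's mean and 0.18 with bins in both lists of the comparison. In LPS, -0.11 became -0.06, -0.05 and -0.09 in the same order. For LPS over UT, 0.06 in p30 became 0.04, 0.03 and 0.05, and -0.23 in p42 became -0.05, -0.07 and -0.22. Autosomes alone and run lengths of 5 or 8 bins moved none of these medians beyond the 95% interval of the median.

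Domains past 1.5-fold numbered 98 higher and 22 lower on the shared bins for p42 over p30 in UT, and 19 and 6 for LPS over UT in p42. With bins in both lists, 9 were lower in UT and 60 higher in LPS for p42 over p30. Of 5 domains named per direction, 3, 3, 2 and 1 were also named on the shared bins (p42 higher, p42 lower, LPS higher, LPS lower).

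Ratios of loops within domains for p42 over p30 were 1.14 in UT and 0.960 in LPS with lists of equal size, 2.22 and 0.790 at a q-value under 0.001, and 1.01 and 0.998 per listed contact. For LPS over UT they were 1.12 in p30 and 0.946 in p42 with equal lists, 1.35 and 0.479 at the stricter q-value, and 1.04 and 1.04 per listed contact, the last of which turned the direction in p42. Equal lists turned all 4 ratios of leaving loops, to 0.940, 1.04, 0.926 and 1.03 in the order p42 over p30 in UT and LPS and LPS over UT in p30 and p42; at the stricter q-value they were 2.12 in UT for p42 over p30 and 0.441 in p42 for LPS over UT. The share of loops within domains with LPS, an alternative added after seeing the data, had ratios in p30 of 1.12 with equal lists, 1.11 at the stricter q-value and 1.11 at distances of 20 kb or more, and in p42 of 0.946 (turned) with equal lists and 1.05 at the stricter q-value. In all, 34 of 83 alternative values stayed within the error or within 1.5 times the count.

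No paired analysis was possible because the replicates of a group are pooled in 1 list, and for the same reason leaving out a replicate was not run. Contacts of unlisted pairs are unknown, and a missing loop or bin is no measure of its absence. Counting error of coverage was small, with a median 95% half-width of 0.023 for the log2 ratio over 246 domains, whereas the spread between replicates is unknown.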
